A study of Mus musculus with 6 samples.

Results

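The tumour necrosis factor (TNF) superfamily comprises membrane-bound and shed ligands and the receptors that bind them. Its members were taken from the array table by gene symbol: every symbol that starts with Tnfsf or Tnfrsf except Tnfrsf17, and Tnf, Lta, Ltb, Ltbr, Fas, Fasl, Cd40, Cd40lg, Cd27, Cd70, Eda2r and Ngfr. Of the 14860 genes with an entry of their own in the table, 35 were members, of which 15 were ligands and 20 receptors. Each of the 35 was read by a single entry. Entries annotated to more than 1 gene were not used, and Cd27, Ltbr, Tnfrsf13c, Tnfrsf22, Tnfrsf23, Tnfsf12 and Tnfsf13 were not analysed here.

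RNA came from splenocytes that microbeads against Sca-1 had enriched. Sca-1 is a surface protein of primitive blood cells that some lymphocytes also carry. Each mouse was measured on 1 Affymetrix exon array. The 3 treated mice were given 75 mg/kg of ABT-737, 3 doses a week over 33 days, a BH3-mimetic compound that inhibits BCL-2 and its relatives BCL-XL and BCL-W. The 3 control mice were untreated per the series description. All mice of both groups were NRASD12/BCL-2 double transgenic animals in FVB/N, which serve to model acute myeloid leukaemia (AML), so the controls carried both transgenes too. Age, sex, the promoters that drive the transgenes and any vehicle are not given in the sources used here.

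TNF superfamily ligands act as trimers and cluster their receptors on the cell surface. Receptors with a cytoplasmic death domain, such as TNFR1, FAS and the TRAIL receptor DR5, can recruit adaptor proteins and caspase-8 and start apoptosis from outside the mitochondrion, whereas the BCL-2 proteins that ABT-737 binds control the mitochondrial route. Most other receptors of the family recruit TRAF adaptors and activate NF-kB, and in the spleen they serve as survival receptors of B cells (the BAFF receptors, CD40) and costimulatory receptors of T cells (OX40, 4-1BB, GITR, CD30). Decoy receptors bind ligand without passing on a signal.

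Values are log2 signals, on which a difference of 1 is a doubling. Differences are ABT-737 minus control with their standard error (SE) from limma, a linear model with variances partly shared over genes, and adjusted p values are Benjamini-Hochberg values over all 14860 genes, with a threshold of 0.05. Array medians were 7.13, 7.14 and 7.07 in the treated mice and 7.13, 6.86 and 7.09 in the controls, so control mouse 2 was dimmer as a whole. On the first principal component of all genes, with 44.1% of the variance, treated mouse 1 lay at -7.42 and treated mice 2 and 3 at 32.2 and 28.1, against -21.0 to -15.0 in the controls. The Y-linked genes Kdm5d and Eif2s3y stood at 4.77 and 4.23 in control mouse 3 and at 8.05 or above and 9.87 or above in the other mice. For part of the results the values without 1 of these mice are also given.

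No member of the family passed the adjusted threshold, and neither did any other gene (0% of 14860; smallest adjusted p 0.114 over all genes and 0.292 among the members). The family split in direction: 20 members had a higher mean in treated mice and 15 a lower one, with a median difference of 0.04, against -0.02 over all genes. At an unadjusted limma p under 0.05, 5 of 35 members (14.3%) were higher, beside 5.75% of all genes, and they were the ligands Tnf, Fasl and Tnfsf14 and the death-domain receptors Tnfrsf1a and Tnfrsf10b. By the same rule 1 of 35 (2.86%) was lower, the T cell costimulatory receptor Tnfrsf9, beside 4.45% of all genes. Treated mice lay wholly above the controls in 3 members (8.57%, beside 6.14% of all genes), Fasl, Tnfsf13b and Tnfrsf10b, and below them in 1 (2.86%, beside 7.19%), Tnfrsf9. These counts on few mice moved with single mice. The 5 higher members became 7 without treated mouse 1, when 10.3% of all genes were higher by the same rule, 3 without treated mouse 2 or control mouse 2 (4.18% and 3.07% of all genes) and 1 without treated mouse 3 or control mouse 3 (3.84% and 4.48%). The 1 lower member became 2 without treated mouse 1 or 2 or control mouse 1 or 3 (4.48%, 5.46%, 2.19% and 3.31% of all genes). Higher members without overlap numbered 8, 6 and 5 without treated mouse 1, control mouse 1 and control mouse 2, beside 16.2%, 11.6% and 7.83% of all genes. Lower ones numbered 4 without treated mouse 1, 2 or 3 or control mouse 1, beside 11.9%, 13.7%, 17.6% and 10.1% of all genes, and 3 without control mouse 3, beside 10.8%.

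Rescaling the arrays, of which control mouse 2 was the dimmest, moved these counts too. With the arrays quantile-normalized, 17 members had a higher mean in treated mice and 18 a lower one, and with each array centred on its median 16 and 19 did; the median difference was -0.03 and -0.04, against -0.06 and -0.11 over all genes. After quantile normalization 3 members were higher and 2 lower at an unadjusted p under 0.05, when 4.96% and 9.47% of all genes were. After centring 4 were higher and 2 lower, beside 4.16% and 8.84% of all genes. The second lower member under both was the ligand Tnfsf18. Of the genes past that p, 56.3% were higher as deposited, 34.4% after quantile normalization and 32.0% after centring. Tnf, Tnfrsf1a, Tnfrsf10b and Tnfrsf9 kept an unadjusted p under 0.05 under both scalings, while Fasl kept it under neither and Tnfsf14 under centring only. Of the 3 higher members without overlap, 0 remained under quantile normalization and Tnfrsf10b alone under centring, when 5.86% and 4.08% of all genes were higher without overlap. Tnfrsf9 remained below all controls under both, when 13.7% and 14.2% of all genes did so.

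**Figure D1:**
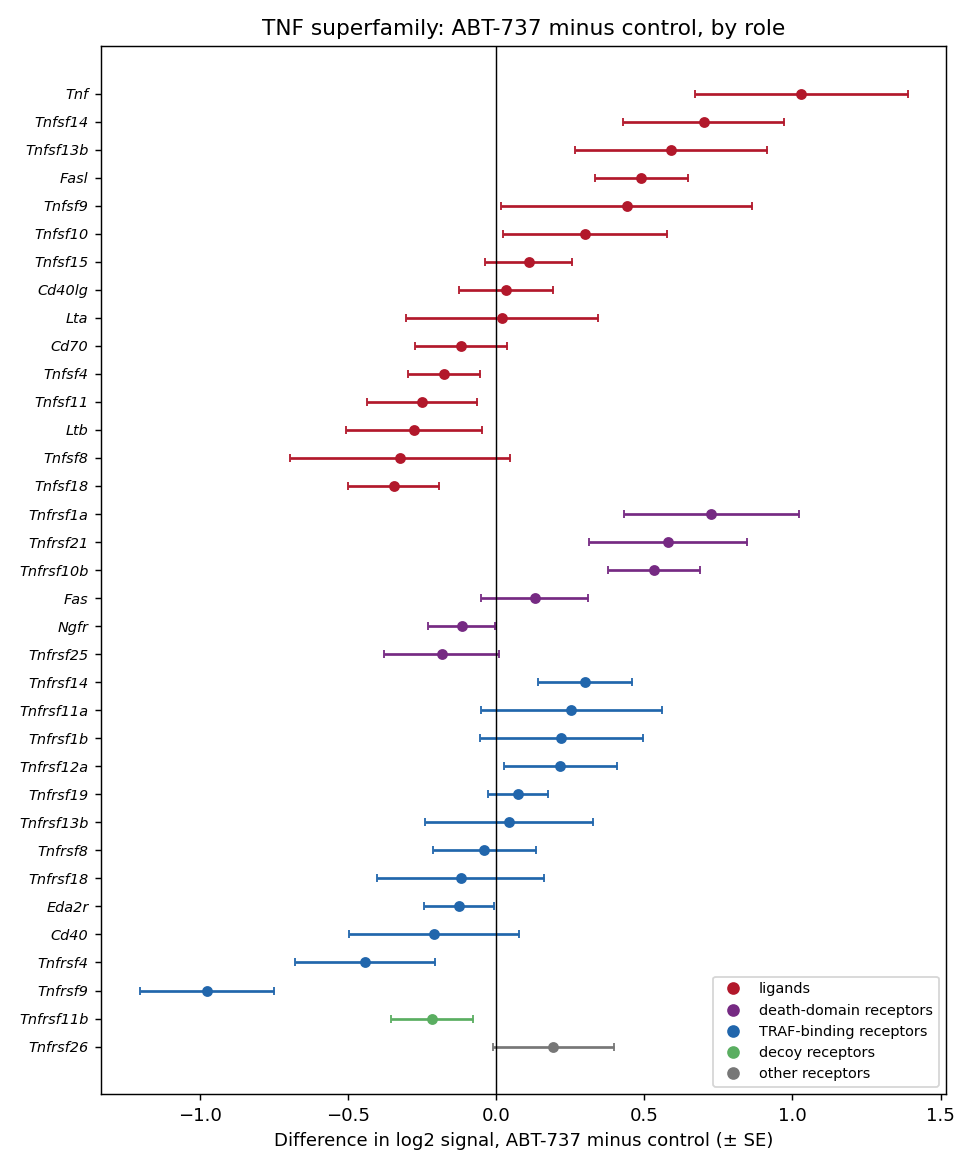
Difference in log2 signal, ABT-737 minus control, for each of the 35 members, by role (points; bars are ± SE from limma). Tnf lies farthest to the right at 1.03 and Tnfrsf9 farthest to the left at -0.98, and none passed the adjusted threshold.

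Promoters of 3 genes are printed because these genes carry the contrasts described next: Tnf had the largest positive difference of the family, Tnfrsf9 the largest negative one, and Fasl was a death ligand whose groups did not overlap. Each window runs from 250 bases before the RefSeq transcription start to 50 bases after it in build GRCm38.p6, in the direction of the gene. The array was annotated on mm9 and its entries were not placed on these windows. Capitals mark matches, on either strand, to the TATA box (TATAAA), the AP-1 site (TGACTCA or TGAGTCA, which are each other's reverse complement) and the NF-kB consensus, and no match of a motif overlapped a match of another.
Tnf, chr17:35201958-35202257, minus strand: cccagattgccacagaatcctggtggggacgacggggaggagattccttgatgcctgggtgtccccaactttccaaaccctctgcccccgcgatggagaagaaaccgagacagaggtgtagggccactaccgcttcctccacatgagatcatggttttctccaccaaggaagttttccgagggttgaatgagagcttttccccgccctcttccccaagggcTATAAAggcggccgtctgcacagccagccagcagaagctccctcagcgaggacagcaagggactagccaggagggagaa
Fasl, chr1:161788446-161788745, minus strand: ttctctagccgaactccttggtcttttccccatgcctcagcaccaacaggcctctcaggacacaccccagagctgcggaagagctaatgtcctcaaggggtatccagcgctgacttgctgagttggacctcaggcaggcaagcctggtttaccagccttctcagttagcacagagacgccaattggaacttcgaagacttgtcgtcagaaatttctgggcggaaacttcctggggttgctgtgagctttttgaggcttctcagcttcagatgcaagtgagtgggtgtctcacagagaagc
Tnfrsf9 upstream start, chr4:150919905-150920204, plus strand: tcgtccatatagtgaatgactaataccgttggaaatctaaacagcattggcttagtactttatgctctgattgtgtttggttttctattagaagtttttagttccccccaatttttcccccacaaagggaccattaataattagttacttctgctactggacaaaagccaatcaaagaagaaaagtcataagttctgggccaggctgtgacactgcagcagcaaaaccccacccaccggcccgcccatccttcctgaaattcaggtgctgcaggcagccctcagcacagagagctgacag
Tnfrsf9 downstream start, chr4:150927749-150928048, plus strand: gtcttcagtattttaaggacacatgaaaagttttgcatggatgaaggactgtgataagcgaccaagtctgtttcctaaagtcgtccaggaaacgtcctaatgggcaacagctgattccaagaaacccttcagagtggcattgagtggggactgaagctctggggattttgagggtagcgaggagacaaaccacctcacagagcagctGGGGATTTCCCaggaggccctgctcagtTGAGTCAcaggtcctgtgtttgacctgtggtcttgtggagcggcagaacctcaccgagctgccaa

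The Tnf window held a TATA box from base -29 to base -24 relative to the start. The downstream Tnfrsf9 window held NF-kB consensus matches in 1 stretch from base -43 to base -33 and an AP-1 site from base -15 to base -9, while the upstream Tnfrsf9 window and the Fasl window held none of these letters. Of the 35 members, 27 had 31 windows in the RefSeq table. The NF-kB consensus was present in 3 of the 31 windows (9.68%; Ltb, Tnfrsf8 and Tnfrsf9) and in 4.51% of all 32851 windows. The AP-1 site was present in 6 (19.4%; Fas, Tnfrsf8, Tnfrsf9, Tnfsf13b and Tnfsf14) and in 5.2% of all, and the TATA box in 5 (16.1%) and in 13.6% of all. Matches are a description of letters and were not tested.

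Among the ligands, Tnf, the founding cytokine of the family, made mainly by macrophages and activated lymphocytes, had the largest difference. Its log2 signal was 11.61, 10.40 and 11.29 in treated mice 1, 2 and 3, against 10.45, 10.26 and 9.50 in the controls. Treated mice 1 and 3 lay above all controls, while treated mouse 2 lay just under control mouse 1, and control mouse 3 was the lowest of all. The means were 11.10 ± 0.63 in treated mice and 10.07 ± 0.50 in controls (SD, n = 3 each), a difference of 1.03 (SE 0.36, 2.04-fold; adjusted p = 0.408 by limma). Without control mouse 3 the difference was 0.75, and over the settings tried it ran from 0.75 to 1.38. Its groups were separate without treated mouse 2 or without control mouse 1.

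Fasl, the ligand of the death receptor FAS on cytotoxic lymphocytes, was at 7.32, 7.02 and 7.35 in treated mice, against 6.85, 6.89 and 6.48 in controls. All treated mice lay above all controls, by a margin of 0.13 between treated mouse 2 and control mouse 2. The difference was 0.49 (SE 0.16, 1.40-fold; adjusted p = 0.395 by limma), or 0.40 under either scaling, where the groups overlapped. Markers of NK cells and cytotoxic cells were split in direction. Of 5 measured of 8 listed, 1 had a higher mean in treated mice, by 0.53 and without overlap. The 4 others had a lower one, with Prf1 (perforin) at -0.53 and Gzmb (granzyme B), whose groups overlapped, at -1.48. The part of these cells in the Fasl difference was not tested. The receptor Fas itself stood at 6.95, 7.45 and 7.11 in treated mice, against 7.31, 6.82 and 6.99 in controls. Its groups overlapped, with a difference of 0.13 (SE 0.18; adjusted p = 0.866 by limma).

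Tnfsf14 (LIGHT, a ligand of HVEM and the lymphotoxin beta receptor) divided the treated mice. It was at 8.07 and 8.05 in treated mice 2 and 3 but at 7.11 in treated mouse 1, against 7.17, 6.78 and 7.18 in controls. Treated mouse 1 thus lay among the controls. The difference was 0.70 (SE 0.27, 1.62-fold; adjusted p = 0.456 by limma), and without treated mouse 1 it was 1.02 with an adjusted p of 0.0203. Its receptor Tnfrsf14 (HVEM) had a similar order, at 10.06, 10.47 and 10.40 in treated mice 1, 2 and 3, against 10.23, 9.89 and 9.91 in controls. There the groups overlapped and the difference was 0.30 (SE 0.16; adjusted p = 0.585 by limma).

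Tnfsf13b (BAFF, the survival cytokine of mature B cells) was high in 1 treated mouse only. Treated mice stood at 6.59, 7.83 and 6.64, against 6.57, 6.47 and 6.25 in controls, so that treated mice 1 and 3 exceeded control mouse 1 by 0.02 and 0.07. The difference of 0.59 (SE 0.32, 1.51-fold; adjusted p = 0.606 by limma) was 0.19 without treated mouse 2. Of its receptors, Tnfrsf13b (TACI) was at 8.91, 8.83 and 9.75 in treated mice, against 9.05, 8.80 and 9.51 in controls. These groups overlapped, with a difference of 0.04 (SE 0.29; adjusted p = 0.980 by limma) whose sign turned under both scalings. Beside these values, all 9 measured of 10 listed B cell markers had a lower mean in treated mice, with a median of -0.65, and their list mean, as log2 signal, was 11.69, 10.62 and 10.85 in treated mice, against 11.48 to 11.96 in controls. Plasma cell markers went the other way. Of 6 measured of 7 listed, 5 had a higher mean in treated mice, with a median of 0.30. Their list mean was 10.69, 10.56 and 11.17 in treated mice, against 10.16 to 10.52 in controls. In bulk RNA, a change in the number of cells of a type and in RNA per cell cannot be told apart. The part of B cell and plasma cell content in these results was not tested.

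Tnfsf10 (TRAIL, the ligand of DR5) was at 7.79, 8.49 and 7.68 in treated mice, against 7.68, 7.28 and 8.10 in controls. It was highest in treated mouse 2, and the groups overlapped (difference 0.30, SE 0.28; adjusted p = 0.777 by limma). Leaving out mouse 2 of the treated group or of the controls gave 0.05 and 0.10, and leaving out mouse 3 of either gave 0.45 and 0.51. Tnfsf9 (4-1BB ligand, found on antigen-presenting cells) was at 7.75 in treated mouse 1 and at 6.19 and 6.06 in treated mice 2 and 3, against 6.40, 6.23 and 6.05 in controls. The difference of 0.44 (SE 0.42; adjusted p = 0.786 by limma) rested on treated mouse 1 alone, and without it the difference was -0.10. Tnfsf18 (the GITR ligand) was at 5.26, 5.48 and 5.20 in treated mice, against 5.47, 5.58 and 5.93 in controls. Treated mouse 2 lay just above control mouse 1, and control mouse 3 was the highest. The difference was -0.35 (SE 0.16; adjusted p = 0.516 by limma), or -0.36 and -0.43 under quantile normalization and centring and -0.21 without control mouse 3. The other ligands ran from -0.32 to 0.11: Tnfsf15 (0.11), Cd40lg (0.03) and Lta (0.02) above 0, and Cd70 (-0.12), Tnfsf4 (-0.18), Tnfsf11 (-0.25), Ltb (-0.28) and Tnfsf8 (-0.32) below it. Their groups overlapped in all 8, and Tnfsf4 and Tnfsf15 were dim, with both means under the 25th percentile of all genes (5.43). Cd40lg and Lta turned to -0.04 and -0.05 under quantile normalization and to -0.05 and -0.07 under centring.

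Among the 6 death-domain receptors the median difference was 0.33, beside -0.02 over all genes, with 4 above 0 and 2 below, and it was 0.25 under either scaling. Tnfrsf10b (DR5, the mouse TRAIL death receptor and a p53 target gene) was the only 1 of them whose groups did not overlap. It was at 8.16, 7.92 and 7.94 in treated mice, against 7.59, 7.64 and 7.19 in controls. The treated mice were separate from the controls. The gap of 0.28 between the groups exceeded the 0.24 that the treated mice spanned but not the 0.45 that the controls spanned. The means were 8.01 ± 0.13 in treated mice and 7.47 ± 0.25 in controls (SD, n = 3 each), a difference of 0.53 (SE 0.15, 1.45-fold; adjusted p = 0.358 by limma). Its difference ran from 0.39 to 0.66 over the settings tried, and its unadjusted p stayed under 0.05 without any 1 mouse.

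Tnfrsf1a (TNFR1, the widely expressed death-domain receptor of TNF) followed the pattern of Tnfsf14. It was at 9.64 in treated mouse 1 and at 10.90 and 10.38 in treated mice 2 and 3, against 9.60, 9.43 and 9.71 in controls. Treated mouse 1 lay within the controls and the others above them. The difference was 0.73 (SE 0.30, 1.65-fold; adjusted p = 0.467 by limma), and 1.06 with an adjusted p of 0.0286 without treated mouse 1, but 0.43 with an adjusted p of 0.637 without treated mouse 2. Tnfrsf21 (DR6) was at 9.89, 10.94 and 10.78 in treated mice, against 9.91, 9.88 and 10.08 in controls, again with treated mouse 1 among the controls. Its difference of 0.58 (SE 0.27; adjusted p = 0.521 by limma) was 0.90 with an adjusted p of 0.0167 without treated mouse 1, and 0.38 with an adjusted p of 0.741 without treated mouse 2. Tnfrsf25 (DR3, a receptor of T cells) at -0.18 and Ngfr (the p75 neurotrophin receptor) at -0.12 were the members below 0, and their groups overlapped.

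Of the 35 members, only Tnfrsf1a, Tnfrsf21 and Tnfsf14 passed the adjusted threshold under any of the 12 settings tried. All 3 did so only without treated mouse 1, when 510 of all 14860 genes passed. Markers of myeloid and erythroid cells are given beside them. The list mean of 11 measured of 12 listed monocyte and macrophage markers was 10.03, 10.96 and 10.58 in treated mice 1, 2 and 3, against 9.66 to 10.27 in controls, and that of 11 measured of 12 granulocyte markers was 11.98, 12.96 and 12.93, against 10.46 to 11.28 in controls. Treated mouse 1 thus lay within the controls for the monocyte and macrophage markers and above them for the granulocyte markers. Erythroid markers, 7 measured of 10, averaged 6.63, 8.32 and 8.95 in treated mice, against 7.04 to 7.30 in controls. The part of these cell types in the differences of the members was not tested.

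**Figure D2:**
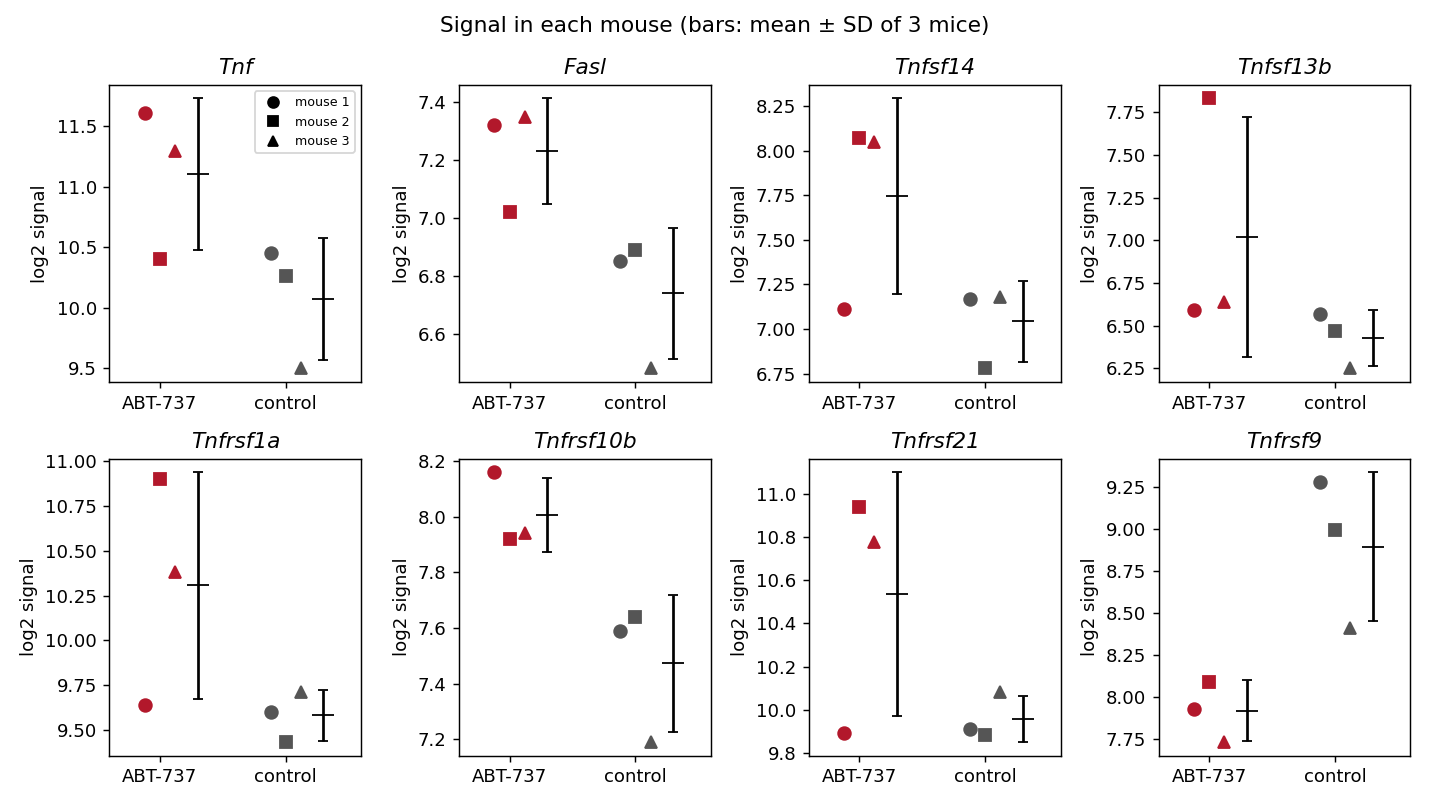
Log2 signal of 8 members in each mouse (ABT-737 in red on the left, control in grey on the right; black bars are mean ± SD of 3 mice; each panel has its own axis). Treated mouse 1 lies with the controls for Tnfsf14, Tnfrsf1a and Tnfrsf21, at 7.11, 9.64 and 9.89. The treated mice lie apart from the controls for Tnfrsf10b and Tnfrsf9, and by smaller gaps of 0.13 and 0.02 for Fasl and Tnfsf13b.

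The 12 TRAF-binding receptors had a median difference of 0.0017, with 6 above 0 and 6 below, and of -0.08 and -0.09 under quantile normalization and centring. Tnfrsf9 (4-1BB, induced on activated T cells and NK cells) had the smallest p of the family. It was at 7.93, 8.09 and 7.73 in treated mice, against 9.28, 8.99 and 8.41 in controls. All treated mice lay below all controls, by 0.32 between treated mouse 2 and control mouse 3, whose Y-linked signal was low. The means were 7.92 ± 0.18 in treated mice and 8.89 ± 0.44 in controls (SD, n = 3 each), a difference of -0.98 (SE 0.23, 1.97-fold lower; adjusted p = 0.292 by limma). It ran from -1.22 to -0.77 over the settings tried, and was -1.22 without control mouse 3.

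Other T cell costimulatory receptors were less clear. Tnfrsf4 (OX40) was at 9.51, 9.48 and 9.49 in treated mice, which hardly varied, against 10.24, 10.21 and 9.36 in controls. Control mouse 3 lay below all treated mice, and the difference was -0.44 (SE 0.24; adjusted p = 0.589 by limma). Without control mouse 3 the groups did not overlap and the difference was -0.73, with an unadjusted p of 0.00106 and an adjusted p of 0.498, while it was -0.29 and -0.31 without control mice 1 and 2 and -0.19 with array weights. Tnfrsf18 (GITR) was at 11.14, 10.33 and 10.37 in treated mice, against 10.98, 10.96 and 10.26 in controls, and Tnfrsf8 (CD30) differed by -0.04. Tnfrsf18 differed by -0.12, and neither difference exceeded its SE in size (0.28 for Tnfrsf18 and 0.17 for Tnfrsf8). Regulatory and activated T cell markers moved in the direction of Tnfrsf9: all 4 measured of 6 listed had a lower mean in treated mice, with Icos at -1.17, Pdcd1 (PD-1) at -1.20 and Ikzf2 at -0.45, and their list mean was 9.04, 9.24 and 8.91 in treated mice, against 10.38, 9.80 and 9.45 in controls. General T cell markers, 10 measured of 11, had a median of -0.15 and list means of 10.54, 10.35 and 10.17 in treated mice, against 10.35 to 10.64 in controls. The part of T cell content or state in the Tnfrsf9 difference was not tested.

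The remaining receptors varied among themselves. Cd40, which licenses B cells and dendritic cells, was at 9.0, 8.57 and 8.30 in treated mice, against 8.62, 8.45 and 9.43 in controls. Its groups overlapped, with a difference of -0.21 (SE 0.29; adjusted p = 0.864 by limma) that was 0.09 without control mouse 3. Tnfrsf1b (TNFR2) was at 10.45, 11.49 and 10.46 in treated mice, against 10.53, 10.56 and 10.65 in controls. Only treated mouse 2 stood above the controls, and the difference of 0.22 (SE 0.28; adjusted p = 0.851 by limma) was -0.13 without it. Tnfrsf11a (RANK, the receptor for RANKL in osteoclast precursors and dendritic cells) at 0.25 (0.03 to 0.53 without single mice) and Tnfrsf12a (the TWEAK receptor) at 0.22 had overlapping groups. So did Tnfrsf19 at 0.07 (-0.01 under centring), Eda2r (dim, at 4.20 in treated mice and 4.33 in controls) at -0.13, the RANKL decoy Tnfrsf11b (osteoprotegerin) at -0.22 and Tnfrsf26 at 0.19.

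Ligands were set beside the receptors that bind them. Tnf (1.03) stood beside Tnfrsf1a (0.73) and Tnfrsf1b (0.22), Tnfsf10 (0.30) beside Tnfrsf10b (0.53), and Fasl (0.49) beside Fas (0.13), Tnfsf14 (0.70) beside Tnfrsf14 (0.30), and Tnfsf13b (0.59) beside Tnfrsf13b (0.04). Tnfsf9 (0.44) stood beside Tnfrsf9 (-0.98), Cd40lg (0.03) beside Cd40 (-0.21), Tnfsf4 (-0.18) beside Tnfrsf4 (-0.44), Tnfsf18 (-0.35) beside Tnfrsf18 (-0.12), Tnfsf8 (-0.32) beside Tnfrsf8 (-0.04), and Tnfsf11 (-0.25) beside Tnfrsf11a (0.25). As deposited, Tnfsf9, Cd40lg and Tnfsf11 thus had the opposite sign to their receptor and the other ligands listed the same sign. The signs of Cd40lg and Tnfrsf13b turned under both scalings, and other signs turned in single settings. Among them, Tnfsf9 was -0.10 without treated mouse 1, and Tnfrsf1b and Fas were -0.13 and -0.01 without treated mouse 2. Cd40 was 0.09 without control mouse 3, and Tnfrsf18 and Tnfrsf8 were 0.08 and 0.09 with array weights. Many of the pairs thus have no settled sign. All values set side by side here are differences of separate entries, and no level of 1 gene was set against that of another.

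**Figure D3:**
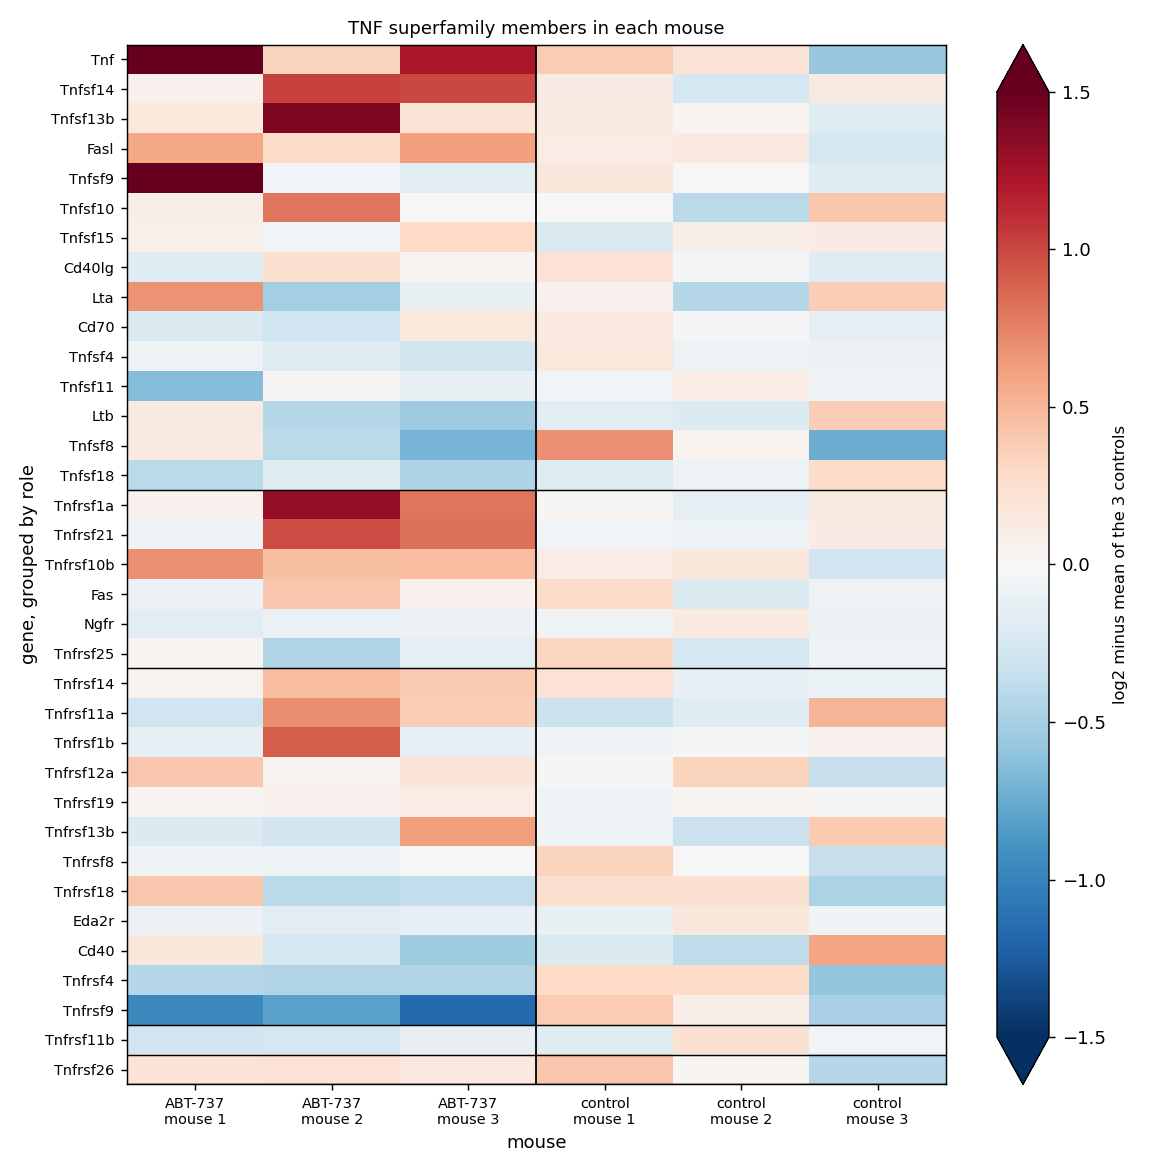
Log2 signal of each of the 35 members in each mouse, minus the mean of the 3 controls (colour, capped at 1.5 in either direction; rows are grouped by role and ordered by difference, ABT-737 mice on the left). Tnf and Tnfsf9 in treated mouse 1, at 1.54 and 1.52, lie at the end of the scale, and Tnfrsf9 is below 0 in all 3 treated mice.

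Downstream of the receptors, no gene passed the adjusted threshold. Of the TRAF adaptors 5 of 6 were measured, with 1 above 0 and 4 below. Traf4 had an unadjusted p under 0.05, at 9.20, 8.49 and 8.32 in treated mice, against 9.69, 9.44 and 9.17 in controls, a difference of -0.76 (SE 0.25; adjusted p = 0.399 by limma) with treated mouse 1 just above control mouse 3. Of the death signalling complex (adaptors, kinases, caspase-8, its inhibitor and their ubiquitin regulators) 14 of 17 were measured, with 9 above 0, 5 below and a median of 0.10, which became 7 and 7 with 0.01 under either scaling. Ripk3, the kinase of necroptosis, was at 9.69, 9.99 and 9.99 in treated mice, against 9.63, 9.21 and 9.30 in controls. These groups did not overlap (difference 0.51, SE 0.15, adjusted p = 0.374 by limma). Rbck1, of the same list, lay wholly the other way, at 10.66, 10.60 and 10.46 in treated mice, against 10.85, 10.70 and 10.77 in controls. Its difference was -0.20 (SE 0.11, adjusted p = 0.612 by limma).

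Of the NF-kB kinases and subunits 12 of 16 were measured, with 9 above 0, a median of 0.07 and 0 at an unadjusted p under 0.05 by limma. Under either scaling 6 were above 0, with medians of -0.01 and -0.02. Of the genes of ligand shedding 3 of 4 were measured, all above 0 as deposited, 2 after quantile normalization and 1 after centring. Rhbdf2 (iRhom2, which brings the TNF-releasing protease ADAM17 to the cell surface) was at 9.46, 9.53 and 9.54 in treated mice, against 8.99, 8.69 and 9.14 in controls. All treated mice lay above all controls, with a difference of 0.57 (SE 0.14, 1.48-fold; adjusted p = 0.318 by limma). In all, 2 of these 34 measured pathway genes were higher and 1 lower at an unadjusted p under 0.05, beside the 5.75% and 4.45% of all genes. Without overlap 2 were higher and 1 lower, beside 6.14% and 7.19% of all genes.

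**Figure D4:**
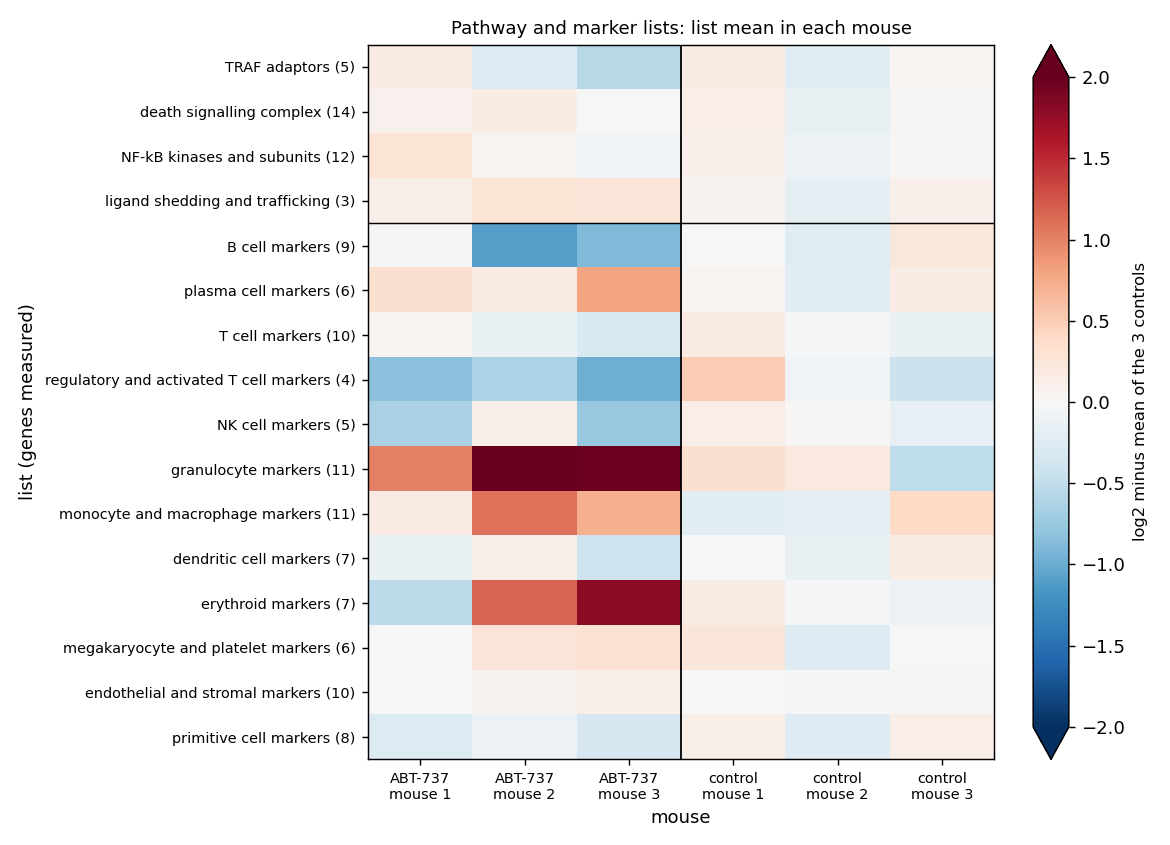
Mean log2 signal of each pathway list (above the line) and cell type marker list (below it) in each mouse, minus the mean of the 3 controls (colour, capped at 2; number of genes measured in brackets, ABT-737 mice on the left). Granulocyte markers lie at 1.02, 2.0 and 1.97 in treated mice 1, 2 and 3, and B cell markers at -0.04, -1.10 and -0.88.

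The Sca-1 selection was compared with the markers that could be read. Ly6a, which encodes Sca-1, was not analysed here. Of the primitive cell markers 8 of 10 were measured, with list means of 7.24, 7.38 and 7.17 in treated mice, against 7.25 to 7.64 in controls. Of these, 2 had a higher mean in treated mice and 6 a lower one, with a median of -0.26. Cd34, the most lowered of them at -0.69, was at 9.11, 9.63 and 8.89 in treated mice, against 9.98, 9.47 and 10.25 in controls. Its groups overlapped. Markers of mature B cells, T cells and granulocytes gave signal in every mouse, as listed above, so the fraction was not read as primitive cells alone. For the 4 members whose groups did not overlap, the two-sided exact permutation test of the 6 values gave p = 0.1, the smallest that 3 against 3 mice allow. Any groups without overlap give this value, so it adds nothing to the separation itself. For the other members the test gave 0.2 or more.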

How the data were processed

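Fragmented, biotinylated RNA of Sca-1-enriched splenocytes of 6 mice was read on exon arrays, per the labels' protocols. Values as deposited by the authors were log2 signals from 2.6 to 14.3, as read from the values, and build mm9 is named per the submitters' processing notes. Normalization, summarisation and filters are not given in the sources used here. No background signal was used, and precision is limited by the number of arrays.

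Of 23332 entries, the platform annotation gave 1 symbol to 14996, several to 1019 and none to 7317. Of the 14996, 14941 matched RefSeq genes of GRCm38.p6 by Entrez number, which changed 0 symbols. For the 135 genes with several entries the highest-mean entry was kept. Groups came from the treatment labels. The mice, numbered in accession order, are not paired.

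Differences were fitted with limma 3.58.1 in R 4.3.3 over all genes. The fit was checked on simulated data. Members, lists and tests were chosen with earlier results of these data known. Values in every mouse were given for members with an unadjusted p under 0.05, without overlap or with at least 1.5-fold, and for a preset list of ligands and receptors. Tnfrsf14, Tnfrsf21, Tnfsf9, Tnfsf18, Tnfrsf4, Tnfrsf18, Cd34, Gzmb, Prf1, Icos, Pdcd1 and Ikzf2 were added with their values known. The settings varied were quantile normalization, median centring, leaving out the dimmest 30%, array weights, variances trended and robust, averaging the entries of a gene, and leaving out each mouse. Figures used matplotlib 3.10.9 in Python 3.11.15. Promoters are from RefSeq, build GRCm38.p6.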

Additional observations from a re-analysis of the deposited data

How the results depend on the processing

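The 12 members followed were Tnf, Fasl, Fas, Tnfsf10, Tnfsf13b, Tnfsf14, Tnfrsf1a, Tnfrsf1b, Tnfrsf10b, Tnfrsf13b, Cd40 and Tnfrsf9. Some of them were picked by their values in these same data, which favours a kept direction. Tnfrsf21, which passed the adjusted threshold without ABT-737 mouse 1, was not among the 12. Followed through 12 settings, the 12 members gave 144 values. Leaving out the dimmest 30%, trended and robust variance and averaging entries leave each member's difference as it was, so direction could not change there. Of the 144 values, 134 kept their direction and stayed above the adjusted threshold, 2 passed it and 8 changed sign. Of those that changed sign, Tnfrsf13b was at -0.031 under quantile normalization, -0.043 under median centring, -0.15 with array weights and -0.25 to 0.238 without single mice, below 0 without ABT-737 mouse 3 (-0.25) or control mouse 2 (-0.117). Without single mice Fas ran from -0.01 to 0.265 and Tnfrsf1b from -0.125 to 0.395, both lowest without ABT-737 mouse 2, and Cd40 from -0.402 to 0.0883, highest without control mouse 3. Genes past the adjusted threshold numbered 14 with the dimmest 30% left out, when 10401 genes and 29 members were tested, 2 with array weights and 0 to 510 without single mice, the most without ABT-737 mouse 1. Higher members at an unadjusted p under 0.05 numbered 3 under quantile normalization and 1 to 7 without single mice, beside 4.96% and 3.07% to 10.3% of all genes. Lower members numbered 2 under quantile normalization, centring, trended and robust variance and array weights, beside 9.47%, 8.84%, 4.21% and 5.87% of all genes, with Tnfsf18 the second in each, and 1 to 2 without single mice, beside 2.19% to 5.63%. Higher members without overlap numbered 0 under quantile normalization, 1 under centring and 3 to 8 without single mice, beside 5.86%, 4.08% and 7.83% to 16.2% of all genes, and lower ones 2 under centring and 1 to 4 without single mice, beside 14.2% and 10.1% to 17.6%. The median difference of the members was -0.031 under quantile normalization, -0.043 under centring, 0.13 with the dimmest 30% left out and 0.02 to 0.09 without single mice, while that of all genes was -0.06, -0.11 and -0.01 in the first 3. The cause of these shifts was not tested. No paired analysis was possible because the labels give the mice no shared replicate numbers. With 3 mice a group and no background signal, small differences of dim members could not be resolved.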
